A study of Homo sapiens with 24 samples.

Results

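The 10 genes described here belong to the canonical Wnt pathway or mark intestinal stem cells: APC (ENSG00000134982), CTNNB1 (ENSG00000168036), AXIN2 (ENSG00000168646), LGR5 (ENSG00000139292), ASCL2 (ENSG00000183734), RNF43 (ENSG00000108375), NKD1 (ENSG00000140807), TCF7 (ENSG00000081059), LEF1 (ENSG00000138795) and TCF7L2 (ENSG00000148737). They were taken by Ensembl identifier from the 20426 genes listed in all 24 tables. The study profiled ribosomes in cultured human colon cells: INPUT libraries sample the RNA of a lysate and RPF libraries sample the fragments that ribosomes protect from nuclease, called footprints below. Each of 6 cell populations had 2 INPUT and 2 RPF libraries. COPS7B denotes HCT15 cells whose labels give the genotype as COPS7B overexpression, and vector denotes HCT15 cells with PLVX in their title and the genotype WT. HCT116, SW620 and untransduced HCT15 were colon cancer lines labelled WT. The 841CON line, labelled as a normal epithelial cell of the colon and WT, was the reference of the cancer lines. All cells received cycloheximide, an inhibitor that holds ribosomes in place, at 100 µg/mL for 10 minutes. The labels give HCT116, SW620, HCT15 and 841CON a different medium each, so medium and line cannot be told apart. Nothing in the labels says that the 2 replicates of a group were separate cultures, so a p-value here weighs a difference against the spread of these libraries alone, and that spread may be technical.

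In the canonical pathway, a cytoplasmic complex built on APC and AXIN2 or its relative AXIN1 marks β-catenin, the product of CTNNB1, for destruction. Wnt ligands stop this, and β-catenin then enters the nucleus, binds factors of the TCF/LEF family (TCF7, LEF1, TCF7L2) and switches on target genes. AXIN2, LGR5, ASCL2, RNF43 and NKD1 are known targets of this switch in the intestine. LGR5 is the R-spondin receptor that marks crypt base stem cells, ASCL2 is a transcription factor of the same cells, RNF43 removes Wnt receptors from the cell surface, and NKD1 binds Dishevelled and dampens the signal. As general knowledge of the lines, HCT15 and SW620 carry truncated APC, and HCT116 carries an altered CTNNB1.

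TCF/LEF factors bind DNA through a core of the letters CTTTG, read as CAAAG on the other strand. Because 3 of the 10 genes encode these factors, the bases before the RefSeq start that held the most copies of the core were taken for each of the 3 (build GRCh38.p14, 250 bases before the start, written 5′ to 3′ on the gene's strand, core matches in capitals). TCF7 is at chr5:134123368-134123617 (+ strand), LEF1 at chr4:108166302-108166551 (- strand) and TCF7L2 at chr10:113126383-113126632 (+ strand). The TCF7 and TCF7L2 stretches stand before one of several RefSeq starts. All 3 stretches lie inside their gene as the annotation bounds it. The other TCF7 window held 0 copies of the core, and the other TCF7L2 windows held 0 and 1.
TCF7: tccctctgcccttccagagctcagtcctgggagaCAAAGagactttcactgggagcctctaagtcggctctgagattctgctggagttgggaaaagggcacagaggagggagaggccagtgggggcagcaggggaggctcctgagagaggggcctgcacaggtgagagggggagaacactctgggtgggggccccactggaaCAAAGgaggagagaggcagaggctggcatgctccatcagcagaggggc
LEF1: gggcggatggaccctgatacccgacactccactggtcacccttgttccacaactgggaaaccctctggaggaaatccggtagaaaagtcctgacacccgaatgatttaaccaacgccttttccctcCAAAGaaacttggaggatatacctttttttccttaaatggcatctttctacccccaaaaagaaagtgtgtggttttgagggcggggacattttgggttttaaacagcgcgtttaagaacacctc
TCF7L2: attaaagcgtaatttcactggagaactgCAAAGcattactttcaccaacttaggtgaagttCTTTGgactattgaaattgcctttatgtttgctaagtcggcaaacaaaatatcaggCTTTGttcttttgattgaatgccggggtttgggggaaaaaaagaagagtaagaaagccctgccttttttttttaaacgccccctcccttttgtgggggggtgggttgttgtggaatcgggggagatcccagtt
The first copy of the core begins 216 bases before the start in the TCF7 stretch, 124 in that of LEF1 and 222 in that of TCF7L2. Windows from 250 bases before to 50 after a start were on hand for 6 of the 10 genes, 11 windows in all. The core CTTTG or CAAAG was in 6 of these 11 windows and in 47.5% of all 35116 windows of the table. The longer form CTTTGT or ACAAAG was in 4 of 11 and in 16.1% of all windows. CTTTGA or TCAAAG was in 0 of 11 and in 12.9% of all windows. The core is part of both longer forms.

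The INPUT libraries held 1237231 to 9105954 counts in the genes they list, and the RPF libraries 84262 to 4679279, with the SW620 footprints the shallowest at 98043 and 84262. Levels are given as counts per 1000000 (CPM) of the scaled library total, first replicate first. A floor of 3 counts stood at 25.7 and 30.6 CPM in the SW620 RPF libraries and at 0.525 to 3.28 CPM in the others. Some libraries were closer to another population than to the one their labels tie them to. Over 11683 genes, HCT116 INPUT correlated less with HCT116 footprints (Spearman's rho 0.604 to 0.614) than with HCT15 footprints (0.640 to 0.677). Taken from the footprints, HCT116 RPF was closer to HCT116 INPUT than to vector INPUT (0.514 to 0.545), COPS7B INPUT (0.503 to 0.531) or HCT15 INPUT (0.476 to 0.505). In 841CON, HCT15, SW620 and COPS7B each INPUT library was closest to the footprints of its own line. In HCT116, 2.13% of the 4452 genes with at least 100 footprints had no INPUT count, against 0.229% to 1.63% in the other populations. The 1.63% is that of SW620, 3 of 184 genes. In the other direction, 1.42% of the 1620 HCT116 genes with at least 500 INPUT counts had no footprint. That share was 1.09% in 841CON and 0% to 0.649% in the rest. The INPUT libraries labelled COPS7B, said to be HCT15 cells, correlated with HCT15 INPUT at 0.617 to 0.650, with vector INPUT at 0.676 to 0.686 and with HCT116 INPUT at 0.689 to 0.711. Among footprints of the HCT lines, those of COPS7B were closest to vector (0.705 to 0.736), ahead of HCT15 (0.614 to 0.654) and HCT116 footprints (0.605 to 0.614). The vector INPUT libraries, of the same parent line, correlated with HCT15 INPUT at 0.873 to 0.904. The part this plays in the results was not tested, and wherever COPS7B or HCT116 is written below, the libraries labelled so are meant. The files hold Ensembl identifiers with no gene names, so markers of other cell types and the level of COPS7B itself were not analysed here.

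In HCT15 and SW620 the target genes AXIN2, LGR5, ASCL2 and NKD1 and the factor TCF7 rose against 841CON in both RNA and footprints, while APC and CTNNB1 RNA passed no test in any of the 3 cancer lines. A gene is said to rise or fall only where edgeR's quasi-likelihood test gave a Benjamini-Hochberg adjusted p under 0.05 over all genes tested. RNF43 was below the filter on low counts, so 9 of the 10 genes were tested together with 11938 genes in all. LGR5, ASCL2, NKD1 and TCF7 had 2, 3, 3 and 4 summed INPUT counts in 841CON. They passed the filter through other populations and could be called only as higher against 841CON. In 841CON footprints this holds for LGR5, NKD1 and ASCL2, at 0, 0 and 5 counts. The counts and medians below include these genes. In HCT15 RNA, 7 of the 9 rose and 0 fell, where 35.4% of all genes were called, 16.8% as higher and 18.6% as lower. In SW620 RNA, 5 rose and 1 fell (44.4% of all genes called, 21.8% higher and 22.6% lower). In HCT116 RNA, 3 of the 9 rose and 1 fell (40.1% called, 19% higher and 21% lower), which is near that background over 9 genes. LGR5 (0 counts against 2) and ASCL2 (1 against 3) were too low in both lines to be called, which leaves 7 genes. Footprints of 6 genes rose and of 1 fell in HCT15 (49.9% called, 28.8% higher and 21.1% lower). In SW620 footprints, 5 rose and 2 fell (38% called, 18.6% higher and 19.4% lower). HCT116 footprints rose for 2 and fell for 3 (59.3% called, 22.6% higher and 36.7% lower). There LGR5 (0 counts in both lines) and NKD1 (1 against 0) were too low to be called. The median log2 fold change of the 9 genes, with genes at or near 0 counts set at their bound or count ratio, was 5.48 in HCT15 RNA and 4.63 in SW620 RNA, beside medians of -0.02 and 0.02 over all genes. In HCT116 RNA it was 0.29 over the 7 genes with a value, beside -0.04 over all genes. In footprints it was -0.53 in HCT116 (7 genes), 2.59 in SW620 and 2.56 in HCT15, beside -0.25, -0.13 and 0.27 over all genes. The 3 comparisons share the 841CON libraries, and the 841CON INPUT pair itself disagreed: AXIN2 had 23 counts in its first replicate and 0 in its second, although the second held 9105954 counts against 1616158. Fitted on the HCT15 and 841CON INPUT libraries alone, the test called 0 of the 7 genes (adjusted p 0.0667 to 0.272) and 0 of 11210 genes in all.

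**Figure D1:**
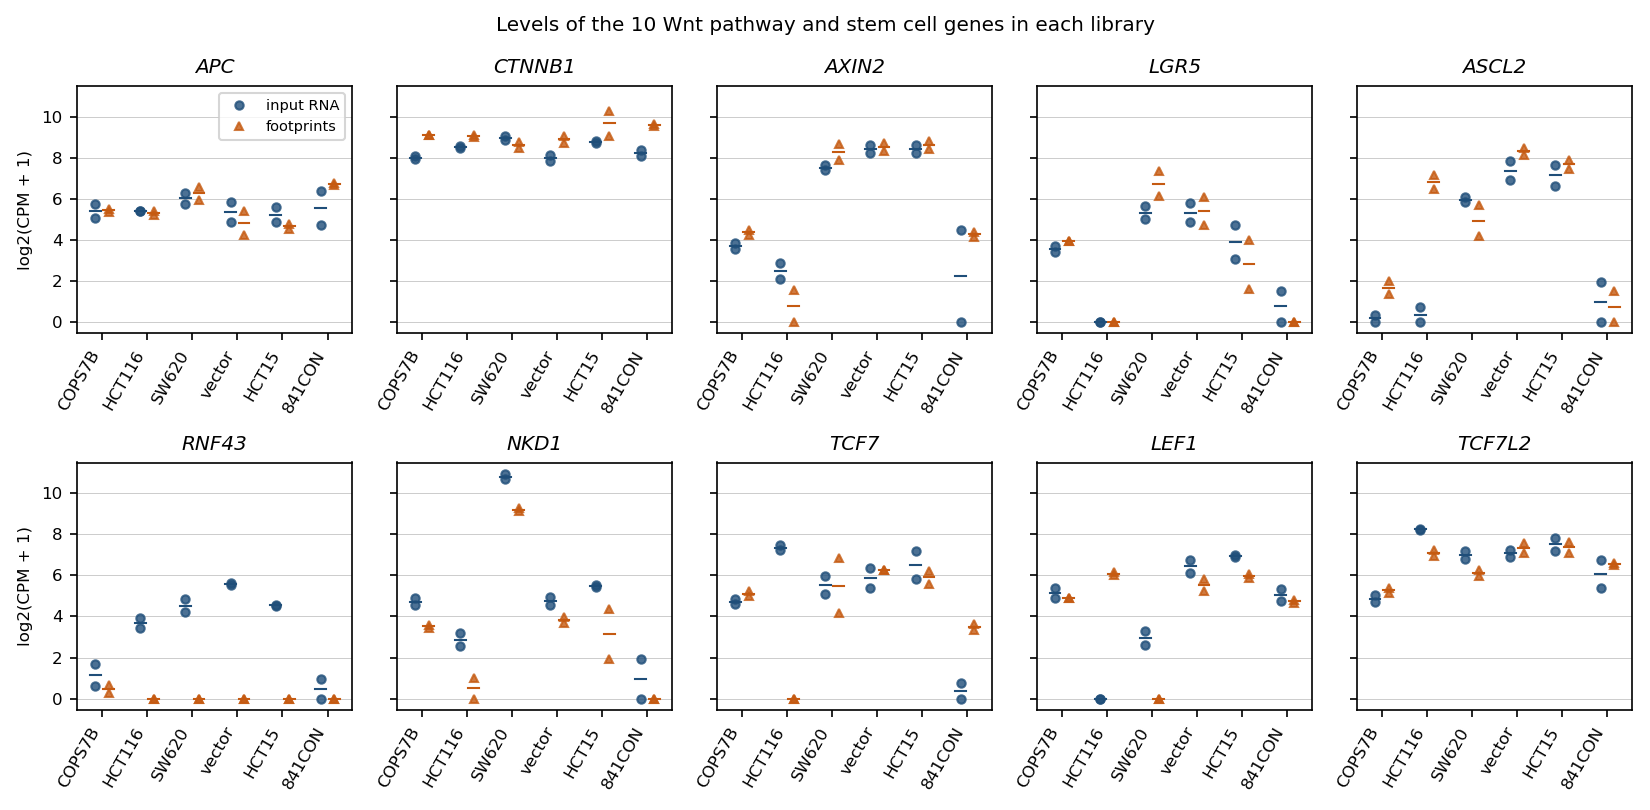
Level of each gene, as log2(CPM + 1), in the INPUT (circles) and RPF (triangles) libraries of the 6 populations, 2 libraries per group, with a short line at each group mean. AXIN2 stands high in SW620, vector and HCT15 and low in COPS7B, HCT116 and 841CON in both assays, and NKD1 peaks in SW620.

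AXIN2 (chr17:65528563-65561648), a scaffold of the destruction complex that the pathway itself switches on, split the populations into 2 sets. Its INPUT level was 10.8 and 13.3 CPM in COPS7B, 3.34 and 6.45 CPM in HCT116, 201 and 166 CPM in SW620, 303 and 394 CPM in vector, 399 and 300.3 CPM in HCT15 and 21.7 and 0 CPM in 841CON. Every library of SW620, vector and HCT15 was above every library of the other populations, and HCT15 and vector overlapped. AXIN2 RNA rose in HCT15 (log2 fold change 5.56 ± 0.97 SE, edgeR adjusted p 0.000236, n = 2 each) and in SW620 (4.63 ± 0.96, edgeR adjusted p 0.000705). These values ran from 4.01 to 12.69 in HCT15 and from 3.08 to 11.61 in SW620 as one or the other 841CON INPUT replicate was left out. Fitted on the compared libraries alone, the SW620 call was lost too (edgeR adjusted p 0.0935). In HCT116 the difference from 841CON was -0.54 ± 1.10 and did not pass. The footprints showed the same split: 18.1 and 21.3 CPM in COPS7B, 0 and 1.95 CPM in HCT116, 411 and 235 CPM in SW620, 318 and 418 CPM in vector, 345 and 445 CPM in HCT15 and 19.7 and 17.0 CPM in 841CON. AXIN2 footprints rose by 4.42 ± 0.87 on the log2 scale in HCT15 (edgeR adjusted p 0.000406) and by 4.13 ± 0.90 in SW620 (edgeR adjusted p 0.00146). In HCT116 they fell (edgeR adjusted p 0.0169): 2 summed footprints in HCT116 stood against 75 in 841CON, which was 19.1 times higher with an exact 95% counting interval of 5.11 to 161. That fall did not pass without the first HCT116 RPF replicate (edgeR adjusted p 0.125) or the first 841CON RPF replicate (0.0513).

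APC (chr5:112707498-112846239), the scaffold that holds β-catenin in the destruction complex, varied little in RNA. All 12 INPUT libraries lay between 25.4 and 81.6 CPM, and each population's range overlapped that of its neighbours in the order of means, which ran from SW620 (65.0 CPM) through 841CON, COPS7B, vector and HCT116 to HCT15 (37.7 CPM). The highest and the lowest of these libraries were the second and first replicates of 841CON, at 81.6 and 25.4 CPM. APC footprints were 45.0 and 40.3 CPM in COPS7B, 35.7 and 40.9 CPM in HCT116, 94.1 and 61.2 CPM in SW620, 18.2 and 42.1 CPM in vector, 22.5 and 26.1 CPM in HCT15 and 107 and 102 CPM in 841CON. The 841CON pair was above all others. APC footprints fell in HCT15 (log2 fold change -2.09 ± 0.53 SE, edgeR adjusted p 0.00309) and in HCT116 (-1.44 ± 0.53, edgeR adjusted p 0.0243). The HCT116 call was lost on leaving out any one of the 4 HCT116 and 841CON RPF libraries (edgeR adjusted p 0.0634 to 0.122) and without library scaling (0.111). SW620 held only 11 and 6 APC footprints, and its difference of -0.41 ± 0.60 did not pass.

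CTNNB1 (chr3:41199505-41240443), which encodes β-catenin, had the narrowest RNA range of the 10 genes apart from APC: the highest mean, 499 CPM in SW620, was 1.95 times the lowest, 256 CPM in vector. Its INPUT level was 243 and 272 CPM in COPS7B, 358 and 381 CPM in HCT116, 459 and 539 CPM in SW620, 282 and 230.2 CPM in vector, 423 and 454 CPM in HCT15 and 269 and 335 CPM in 841CON. The 3 cancer lines were above both 841CON libraries and did not overlap one another, but the log2 fold changes against 841CON of 0.29 ± 0.33 in HCT116, 0.72 ± 0.33 in SW620 and 0.53 ± 0.33 in HCT15 did not pass (edgeR adjusted p 0.52, 0.0803 and 0.218). CTNNB1 footprints were 547 and 559 CPM in COPS7B, 554 and 518 CPM in HCT116, 436 and 357 CPM in SW620, 423 and 534 CPM in vector, 538 and 1262 CPM in HCT15 and 799 and 747 CPM in 841CON. The HCT15 pair spanned the 841CON pair. In SW620 the footprints fell (-0.96 ± 0.35, edgeR adjusted p 0.0345), and this call was lost in 10 of 13 alternative analyses, among them DESeq2 (adjusted p 0.101), no library scaling (0.449) and the removal of any one of the 4 libraries (0.0751 to 0.165).

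LGR5 (chr12:71439129-71586310), the R-spondin receptor of crypt base stem cells, was not detected in HCT116 and barely in 841CON. It had 0 counts in both INPUT and both RPF libraries of HCT116, where the floor of 3 counts over the group is 0.854 CPM in INPUT and 1.47 CPM in footprints, and in 841CON 2 and 0 INPUT counts and 0 footprints. Elsewhere its INPUT level was 9.74 and 11.9 CPM in COPS7B, 49.2 and 31.1 CPM in SW620, 27.8 and 55.5 CPM in vector and 7.43 and 25.2 CPM in HCT15. Vector and SW620 overlapped at the top, HCT15 and COPS7B overlapped below them. LGR5 RNA rose in HCT15, where the summed counts were 87 against 2 in 841CON, a ratio of 44.7 (exact 95% counting interval 12.02 to 375; edgeR adjusted p 0.00939). Without the second 841CON INPUT replicate this gave an adjusted p of 0.104. In SW620 the RNA was 128 times the 841CON level (interval 34.5 to 1073; edgeR adjusted p 0.00165). Over the alternative analyses the log2 fold change of LGR5 RNA ran from 3.04 to 8.28 in HCT15 and from 4.36 to 9.41 in SW620. In both lines the lowest value lies below the counting interval. Against 0 footprints in 841CON, LGR5 footprints were at least 95.1-fold higher in SW620 (24 counts, edgeR adjusted p 0.00025) and at least 11.7-fold higher in HCT15 (63 counts, edgeR adjusted p 0.00508). These bounds set the lower 95% counting limit of the first group against a floor of 3 counts over both 841CON libraries. Of the 63 HCT15 footprints 60 came from the second replicate, and the call was lost without it (edgeR adjusted p 0.0899) or without the first 841CON RPF replicate (0.0614).

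ASCL2 (chr11:2268498-2270588), the transcription factor of the same stem cells, showed the opposite picture in the RNA and the footprints of HCT116. INPUT held 1 and 0 counts there, while the footprints numbered 144 and 92 (143 and 89.6 CPM). Over all populations the INPUT level was 0 and 0.277 CPM in COPS7B, 0.668 and 0 CPM in HCT116, 55.8 and 67.4 CPM in SW620, 118 and 229 CPM in vector, 202 and 98.4 CPM in HCT15 and 2.83 and 0 CPM in 841CON. The footprints were 2.97 and 1.56 CPM in COPS7B, 17.1 and 51.0 CPM in SW620, 280.4 and 358 CPM in vector, 175 and 237 CPM in HCT15 and 1.86 and 0 CPM in 841CON. SW620, vector and HCT15 were thus high in both assays, COPS7B and 841CON low in both, and HCT116 low in INPUT but below only vector and HCT15 in footprints. ASCL2 RNA rose in HCT15 to 379.7 times (1108 counts against 3; interval 129.6 to 1844; edgeR adjusted p 8.04e-06) and in SW620 to 142 times the 841CON level (interval 47.8 to 697; edgeR adjusted p 2.49e-05). The 841CON INPUT libraries held 3 and 0 ASCL2 counts. Over the alternative analyses the log2 fold change of this RNA ran from 5.71 to 11.47 in HCT15 and from 4.42 to 10.03 in SW620. The lowest values lie below the counting intervals. ASCL2 footprints rose by 7.36 ± 0.87 on the log2 scale in HCT15 (edgeR adjusted p 2.84e-06), 6.53 ± 0.87 in HCT116 (4.51e-06) and 4.72 ± 1.26 in SW620 (0.00638). The SW620 value rests on 2 and 5 footprints, and it was lost without the second replicate (edgeR adjusted p 0.18).

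RNF43 (chr17:58352500-58417534), a membrane ubiquitin ligase that clears Wnt receptors, had RNA in 11 of 12 INPUT libraries and almost no footprints. Its 415 INPUT counts in all stood beside 4 footprints, 1 and 3 of them in COPS7B and none in the other 10 RPF libraries. Of the 9482 genes with at least as many INPUT counts, 28 (0.295%) had no more footprints than that. The feature counted by the authors is not given in the sources used here, and the reason for the missing footprints was not tested. RNF43 RNA was 0.513 and 2.21 CPM in COPS7B, 14.03 and 9.92 CPM in HCT116, 17.5 and 27.8 CPM in SW620, 47.7 and 44.6 CPM in vector, 22.7 and 21.9 CPM in HCT15 and 0.942 and 0 CPM in 841CON. Vector was highest, SW620 and HCT15 overlapped, HCT116 followed, and COPS7B and 841CON overlapped at the bottom. Since RNF43 was below the filter of the joint analysis, it was tested in a fit of the 12 INPUT libraries alone. There it rose against 841CON in HCT116 (41 counts against 1, ratio 79.0, interval 13.4 to 3196, edgeR adjusted p 0.00681). It also rose in SW620 (59 counts against 1, edgeR adjusted p 0.00285) and in HCT15 (148 counts against 1, edgeR adjusted p 0.00414). That fit called 35.1% of 12843 genes in HCT116, 39.3% in SW620 and 29.4% in HCT15. With 1 count in 841CON, RNF43 could be called only as higher against it. That count lay in the first 841CON library and the deeper second held 0, so the ratio leans on the second. No alternative values are given for RNF43.

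NKD1 (chr16:50548396-50649249), an inhibitor that binds Dishevelled, was far higher in SW620 than anywhere else. INPUT gave 22.6 and 28.8 CPM in COPS7B, 8.02 and 4.96 CPM in HCT116, 1976 and 1637 CPM in SW620, 22.5 and 30.02 CPM in vector, 42.6 and 44.8 CPM in HCT15 and 2.83 and 0 CPM in 841CON. Footprints gave 11.05 and 9.97 CPM in COPS7B, 0.992 and 0 CPM in HCT116, 556 and 612 CPM in SW620, 15.0 and 11.6 CPM in vector, 2.81 and 19.4 CPM in HCT15 and 0 in both 841CON libraries. SW620 stood apart in both assays. The 841CON pair was lowest in INPUT, and in footprints 841CON and HCT116 overlapped at or under 1 count per library. NKD1 RNA rose in SW620 (4335 counts against 3 in 841CON, ratio 3979, interval 1361 to 19304, edgeR adjusted p 1.28e-07). It rose in HCT15 (285 counts against 3, ratio 97.7, interval 33.1 to 476, edgeR adjusted p 6.13e-05) and in HCT116 (22 counts against 3, ratio 14.1, interval 4.25 to 73.8, edgeR adjusted p 0.0133). The 841CON INPUT libraries held 3 and 0 NKD1 counts. Over the alternative analyses the log2 fold change of NKD1 RNA ran from 9.29 to 14.91 in SW620 and from 3.92 to 9.70 in HCT15. The lowest values lie below the counting intervals. The HCT116 call was lost without the second 841CON INPUT replicate (log2 fold change 1.15, edgeR adjusted p 0.409) or the first HCT116 one (0.0667). NKD1 footprints were at least 644-fold higher in SW620 (edgeR adjusted p 4.29e-07) and at least 16.01-fold higher in HCT15 (edgeR adjusted p 0.000379) than the 3-count floor of 841CON. Of the 83 HCT15 footprints 79 came from its second replicate.

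TCF7 (chr5:134108218-134148210), a TCF/LEF factor whose long form activates target genes with β-catenin, was near absent from 841CON RNA and gave no HCT116 footprint. Its INPUT level was 27.7 and 23.2 CPM in COPS7B, 152 and 175 CPM in HCT116, 62.3 and 33.0 CPM in SW620, 41.1 and 80.1 CPM in vector, 143 and 55.5 CPM in HCT15 and 0 and 0.701 CPM in 841CON. HCT116 was above every other library, and HCT15, vector and SW620 overlapped in the middle. Footprints were 30.8 and 36.2 CPM in COPS7B, 0 and 0 CPM in HCT116, 17.1 and 112 CPM in SW620, 76.8 and 76.2 CPM in vector, 47.0 and 74.0 CPM in HCT15 and 9.29 and 11.6 CPM in 841CON. HCT116 was therefore the highest population in INPUT and the lowest in footprints. Against 841CON, TCF7 RNA rose by 8.04 ± 0.85 on the log2 scale in HCT116 (edgeR adjusted p 1.96e-06), 6.25 ± 0.84 in SW620 (1.67e-05) and 7.33 ± 0.84 in HCT15 (7.2e-06). The 841CON INPUT libraries held 0 and 4 TCF7 counts, beside 25 and 15 footprints in its RPF libraries. The RNA rises thus rest on an INPUT level that the 841CON footprints do not match, and the reason was not tested. Over the alternative analyses the log2 fold change of TCF7 RNA ran from 7.78 to 11.38 in HCT116, 5.67 to 9.59 in SW620 and 6.65 to 10.68 in HCT15. TCF7 footprints rose by 2.56 ± 0.61 on the log2 scale in HCT15 (edgeR adjusted p 0.0021) and 2.59 ± 0.76 in SW620 (0.012). They were at least 4.86-fold lower in HCT116 than the 40 counts of 841CON (edgeR adjusted p 0.000967). The SW620 footprints numbered 2 and 11, and without the second replicate the log2 fold change was 0.72 and did not pass. Without the first 841CON RPF replicate the log2 fold change was 2.42 and did not pass.

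LEF1 (chr4:108047548-108168932), the family member that intestinal epithelium normally lacks and colon tumours often express, showed the opposite mismatch to TCF7 in HCT116. Its INPUT counts there were 0 and 0, while its footprints were 71 and 65. The INPUT level was 41.0 and 28.8 CPM in COPS7B, 8.75 and 5.18 CPM in SW620, 68.5 and 108 CPM in vector, 125 and 117 CPM in HCT15 and 39.6 and 25.7 CPM in 841CON. HCT15 was highest, vector next, and COPS7B overlapped 841CON. LEF1 RNA rose in HCT15 (log2 fold change 1.91 ± 0.43 SE, edgeR adjusted p 0.00224), fell in SW620 (-2.24 ± 0.50, edgeR adjusted p 0.00151) and was at least 28.2-fold lower in HCT116, against 189 counts in 841CON (edgeR adjusted p 2.13e-06). Footprints were 28.7 and 29.1 CPM in COPS7B, 70.4 and 63.3 CPM in HCT116, 0 and 0 CPM in SW620, 37.1 and 56.5 CPM in vector, 65.3 and 56.8 CPM in HCT15 and 24.5 and 26.97 CPM in 841CON. They rose in HCT116 (1.38 ± 0.43, edgeR adjusted p 0.0109) and in HCT15 (1.24 ± 0.43, edgeR adjusted p 0.0226) and were at least 1.48-fold lower in SW620, where the shallow libraries set a high floor (edgeR adjusted p 0.00614). The HCT15 footprint call was lost in 7 of 13 alternative analyses, including DESeq2 (adjusted p 0.0625) and the removal of the first HCT15 (0.0595), first 841CON (0.128) or second 841CON RPF replicate (0.0829). The HCT116 footprint call was lost without the first HCT116 (edgeR adjusted p 0.0539) or first 841CON RPF replicate (0.0749), and the SW620 call without either SW620 replicate (0.0889 and 0.0568).

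TCF7L2 (chr10:112950247-113167678), the main TCF factor of the intestinal crypt, was present in all 24 libraries. INPUT gave 31.8 and 24.9 CPM in COPS7B, 302 and 299.5 CPM in HCT116, 143 and 112 CPM in SW620, 119 and 149 CPM in vector, 225 and 145 CPM in HCT15 and 40.5 and 105 CPM in 841CON. HCT116 was highest and COPS7B lowest, and HCT15, vector and SW620 overlapped. TCF7L2 RNA rose against 841CON in HCT116 (log2 fold change 2.01 ± 0.39 SE, edgeR adjusted p 0.000457) and in HCT15 (1.31 ± 0.38, edgeR adjusted p 0.0109). The HCT15 call was lost without the first HCT15 INPUT replicate (1.14, edgeR adjusted p 0.0674) or the first of 841CON (0.91, edgeR adjusted p 0.051). The HCT116 call was lost on the compared libraries alone (edgeR adjusted p 0.0738). In SW620 the difference was 0.77 ± 0.38 and did not pass. Footprints were 41.0 and 34.6 CPM in COPS7B, 124 and 151 CPM in HCT116, 77.0 and 61.2 CPM in SW620, 192 and 134 CPM in vector, 136 and 195 CPM in HCT15 and 97.0 and 90.2 CPM in 841CON. None of the 3 cancer lines passed against 841CON in footprints (edgeR adjusted p 0.0753 to 0.535; 1 of the 3, HCT15, had an unadjusted p under 0.05).

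**Figure D2:**
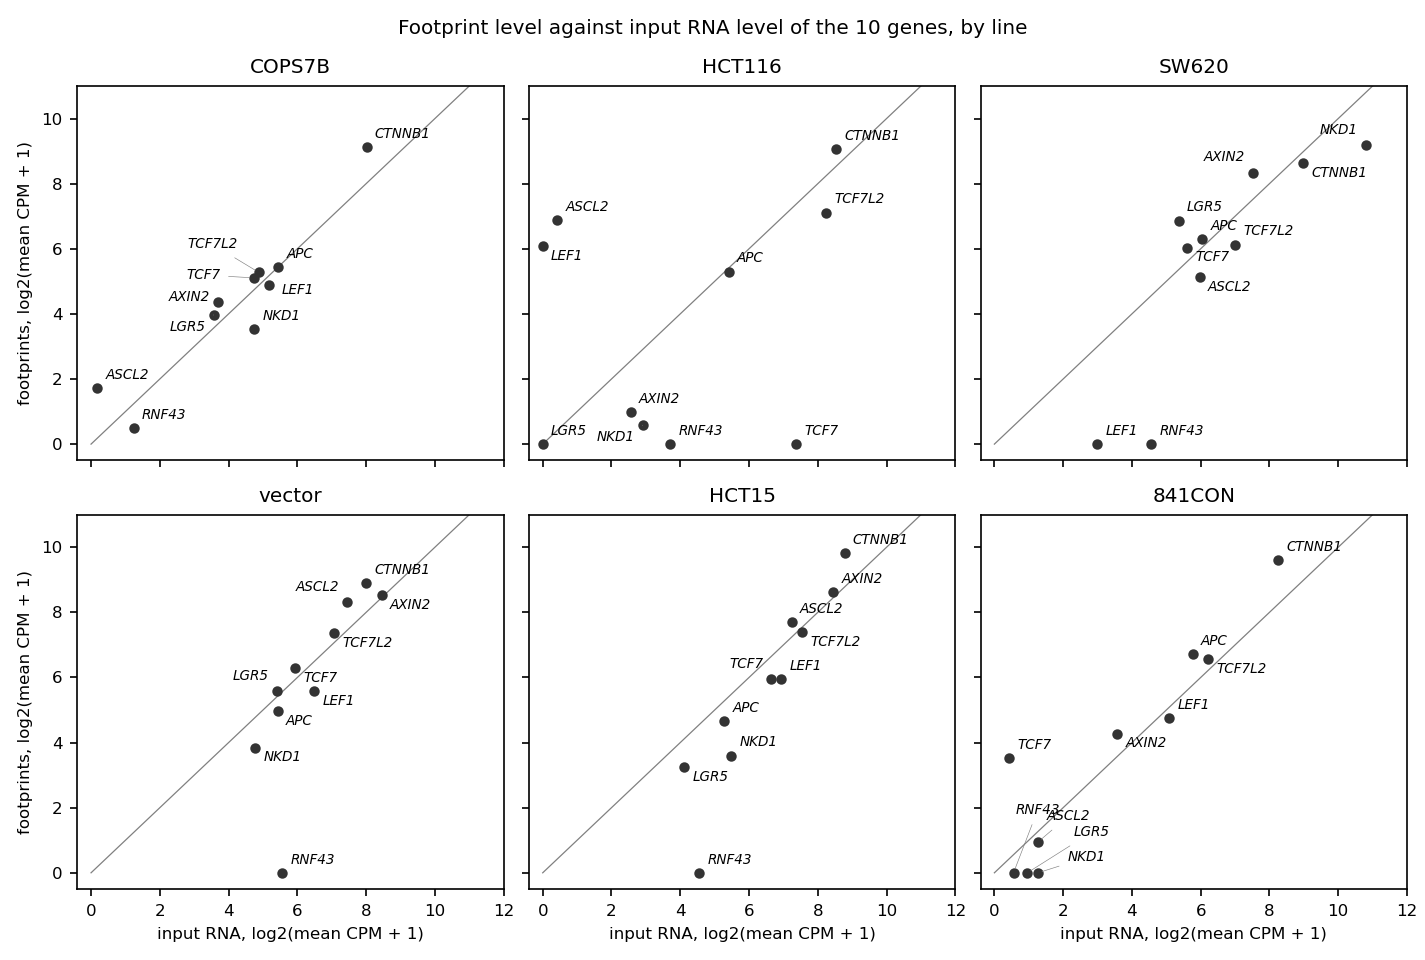
Mean footprint level against mean INPUT level of each gene, both as log2(CPM + 1), 1 panel per population and 2 libraries per mean, with the line of equal CPM. Most genes lie near the line in COPS7B, SW620, vector and HCT15. In HCT116, ASCL2 and LEF1 lie at the left edge (1 and 0 INPUT counts) and TCF7 at the bottom (0 footprints), and RNF43 lies at the bottom in every panel but that of COPS7B, where it is near it.

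Translational efficiency compares the footprint and RNA changes of a gene, as the interaction of assay and population, and was tested where both populations averaged at least 10 INPUT counts. In HCT116 against 841CON only APC, CTNNB1 and TCF7L2 met this, and 1 of the 3 fell (45.6% of 8502 genes called, 14.9% higher and 30.7% lower). TCF7L2 footprints per INPUT level were 0.457 in HCT116, against 1.28 in 841CON, a log2 difference of -1.45 ± 0.54 (edgeR adjusted p 0.0325), beside a median of -0.60 over all genes tested. This call was lost in 10 of 15 alternative analyses (edgeR adjusted p up to 0.19), among them the removal of each of the HCT116 libraries, each 841CON RPF library or the first 841CON INPUT library (0.0565 to 0.109). In SW620, 1 of 4 genes fell (18.4% of 8396 genes called, 8.25% higher and 10.1% lower). The SW620 RPF libraries held 51 and 35 CTNNB1 footprints. CTNNB1 footprints per INPUT level were 0.794 in SW620, against 2.56 in 841CON, a log2 difference of -1.68 ± 0.48 (edgeR adjusted p 0.0202), beside a median of -0.31 over all genes tested. This call was lost in 7 of 16 alternative analyses, among them no library scaling (edgeR adjusted p 0.0599) and the compared libraries alone (0.105). Leaving out the second SW620 INPUT, the second SW620 RPF or the first 841CON RPF library ended this call (0.0609, 0.0743 and 0.0609), as did leaving out the HCT116 and COPS7B libraries (0.0876). In HCT15, 0 of 5 genes passed with edgeR or DESeq2 and 1 had an unadjusted p under 0.05 (16.6% of 8876 genes called, 11.5% higher and 5.08% lower).

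Across HCT116, SW620 and HCT15 together, translational efficiency differed for 1 of 5 genes, TCF7 (edgeR adjusted p 4.75e-05; 52.8% of 8304 genes called). Its summed counts were 579 in INPUT and 0 in footprints in HCT116, 108 and 13 in SW620, and 756 and 368 in HCT15. The footprint level was 1.36 times the INPUT level in SW620 and 0.609 times in HCT15. Over replicate combinations these ratios ran from 0.274 to 3.40 in SW620 and from 0.328 to 1.33 in HCT15, so they overlapped. ASCL2 and LEF1 went the other way in HCT116 (1 and 0 INPUT counts, 236 and 136 footprints), but their INPUT counts were under the minimum for this test. These 3 genes touch the mismatch of the HCT116 INPUT and RPF libraries described above, whose part in the result was not tested. CTNNB1, NKD1, APC and TCF7L2 did not pass (edgeR adjusted p 0.0552 to 0.596).

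Among the 3 cancer lines, RNA of AXIN2, LGR5, ASCL2 and NKD1 had its lowest mean in HCT116. So did RNF43, but its differences from SW620 and HCT15 did not pass (edgeR adjusted p 0.441 and 0.496). In HCT116 against HCT15, 5 of 9 genes fell and 0 rose (22.7% of all genes called, 11.3% higher and 11.4% lower): AXIN2 (log2 fold change -6.10 ± 0.99 SE, edgeR adjusted p 0.000268), NKD1 (-2.76 ± 0.66, 0.00601), and ASCL2, LGR5 and LEF1 with 1, 0 and 0 INPUT counts in HCT116. ASCL2 was 591 times higher in HCT15 (interval 106 to 23369, edgeR adjusted p 1.59e-05), and LGR5 and LEF1 were at least 12.39-fold and 133-fold lower in HCT116 (edgeR adjusted p 0.00624 and 7.49e-07). The LGR5 call was lost without either HCT116 INPUT replicate (0.0501 and 0.0669) and the NKD1 call without the second (0.0871). In HCT116 against SW620, AXIN2, LGR5, ASCL2, NKD1 and LEF1 fell and TCF7 and TCF7L2 rose (36.5% called, 18.6% lower and 17.9% higher). AXIN2 differed by -5.17 ± 0.97 and NKD1 by -8.13 ± 0.76, while TCF7 differed by 1.79 ± 0.57 and TCF7L2 by 1.24 ± 0.38 (edgeR adjusted p 0.000544, 1.21e-06, 0.02 and 0.0156). Neither rise passed without either HCT116 INPUT replicate or the second one of SW620 (edgeR adjusted p 0.0506 to 0.178). In SW620 against HCT15, which share the high levels of AXIN2, NKD1 rose by 5.37 ± 0.64 (edgeR adjusted p 2.4e-05) and LEF1 fell by 4.15 ± 0.50 (3.29e-05), and the other 7 of 9 genes did not pass (23.4% called, 11.2% higher and 12.2% lower).

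The libraries labelled COPS7B were lower than vector for AXIN2, ASCL2 and TCF7L2 in both assays, and none of the 10 genes was called higher. In RNA, 4 of 9 genes fell (17.5% of all genes called, 9.16% higher and 8.35% lower): AXIN2 (-4.84 ± 0.89, edgeR adjusted p 0.000722), TCF7L2 (-2.25 ± 0.40, 0.000522), LEF1 (-1.34 ± 0.42, 0.0348) and ASCL2. ASCL2 had 1 INPUT count in COPS7B against 520 in vector, a ratio of 861 (interval 154 to 34065, edgeR adjusted p 3.19e-06). RNF43, tested in the INPUT libraries alone, also fell (9 counts against 157, -4.92 ± 0.99, edgeR adjusted p 0.0108; 12.7% of 12843 genes called). In footprints 3 of 9 fell (17.3% called, 7.92% higher and 9.42% lower): AXIN2 (-4.22 ± 0.85, edgeR adjusted p 0.00183), ASCL2 (-7.11 ± 0.78, 4.24e-06) and TCF7L2 (-2.11 ± 0.39, 0.000895). The median log2 fold change of the 9 genes was -1.34 in RNA and -1.19 in footprints, beside 0.07 and 0.05 over all genes. The LEF1 call was lost without any one of the 4 libraries (edgeR adjusted p 0.0535 to 0.29). With close replicate pairs summed, the footprint calls of AXIN2 and TCF7L2 were lost (edgeR adjusted p 0.115 and 0.104). LGR5 differed by -1.93 ± 0.99 in RNA and -1.66 ± 0.97 in footprints and TCF7 by -1.24 ± 0.57 and -1.19 ± 0.56, and neither passed, although their COPS7B and vector libraries did not overlap in either assay. APC, CTNNB1 and NKD1 RNA differed by 0.01 ± 0.52, 0.01 ± 0.33 and -0.01 ± 0.59. Translational efficiency passed for 0 of 8 genes and for 0 of 9542 genes in all with edgeR, 132 of which had an unadjusted p under 0.05 but none of the 8, and DESeq2 also called 0 of the 8.

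**Figure D3:**
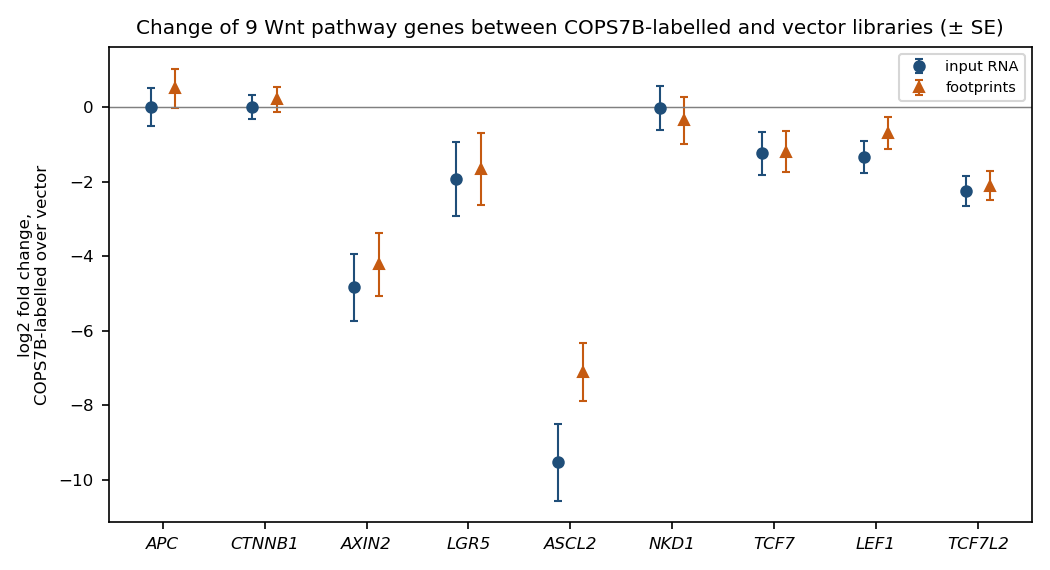
Log2 fold change of COPS7B over vector for 9 genes in INPUT (circles) and footprints (triangles), 2 libraries per group. Bars are 1 standard error, derived from the fold change and the F statistic of edgeR's test. AXIN2, ASCL2 and TCF7L2 lie below 0 in both assays, and the fitted ASCL2 RNA value rests on 1 COPS7B count and depends on the prior count.

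Between vector and HCT15, none of the 9 genes passed in RNA, in footprints or in translational efficiency with edgeR or with DESeq2. Of all genes, 0.67% were called in RNA (0.603% higher, 0.067% lower), 10.5% in footprints (7.43% higher, 3.04% lower) and 0.175% in translational efficiency (0.154% higher, 0.0205% lower). At an unadjusted p under 0.05 there were 1, 2 and 0 genes: CTNNB1 in RNA (-0.77 ± 0.33, edgeR adjusted p 0.366), and CTNNB1 (-0.91 ± 0.33, 0.078) and LGR5 (2.38 ± 1.00, 0.136) in footprints. AXIN2 differed by -0.01 ± 0.74 in RNA and -0.11 ± 0.74 in footprints. Since the vector libraries enter the comparisons with COPS7B and with HCT15 alike, the values are set side by side only.

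The COPS7B INPUT libraries correlated with HCT116 INPUT (0.689 to 0.711) slightly above vector INPUT (0.676 to 0.686), while their footprints were nearer to vector than to HCT116, and their RNA was also compared with HCT116. Of 9 genes 3 rose and 2 fell (23.9% of all genes called, 13.8% higher and 10.2% lower). LEF1 was at least 33.3-fold and LGR5 at least 10.0-fold higher in COPS7B, against 0 counts in HCT116 (edgeR adjusted p 3.3e-06 and 0.0102), and NKD1 rose by 2.01 ± 0.67 (0.0345). TCF7L2 fell by 3.41 ± 0.41 (edgeR adjusted p 1.02e-05) and TCF7 by 2.68 ± 0.58 (0.00299). AXIN2, at 10.8 and 13.3 CPM in COPS7B and 3.34 and 6.45 CPM in HCT116, and ASCL2, at 1 count in each, did not pass. The LGR5 call was lost without either HCT116 replicate (edgeR adjusted p 0.0706 and 0.0974). NKD1 did not pass without any one of the 4 libraries (0.0699 to 0.245).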

How the data were processed

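Counts per Ensembl gene were used as the authors deposited them, 1 table for each of 24 libraries. HTSeq 2.0.2, STAR 2.7.9, cutadapt 3.5 and the build GRCh38 are named in the submitters' processing notes. Of the annotation release, the strand setting and the feature counted, nothing is given in the sources used here. INPUT libraries list 60623 genes and RPF libraries 20426, all tests used the shared 20426, and 11938 passed edgeR's filterByExpr (minimum count 10) in both assays. Lines naming no gene, left out of library totals, made up 53.6% to 90.8% of the counts in the 8 vector and COPS7B tables and 0% elsewhere. A value of 0% does not tell whether such lines were absent or empty, so these shares do not compare the libraries.

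One edgeR 4.0.16 quasi-likelihood model in R 4.3.3 held all 24 libraries with a mean for each of 12 groups (12 residual degrees of freedom) and TMM scaling within each assay. Levels are counts per 1000000 of the TMM-scaled total (CPM). Tests were two-sided with Benjamini-Hochberg adjustment over all genes tested, called under 0.05. Translational efficiency was the interaction of assay and population. Each SE is the absolute log2 fold change divided by the square root of the test's F statistic, and is not one that edgeR reports. Fold changes of groups near 0 counts, and so their SE, depend on edgeR's prior count. For a group at 0 counts, a bound used a floor of 3 counts over the group, and for 1 to 3 counts an exact binomial interval on the summed counts is given. Intervals and floors cover counting error only, since reads that carry no molecular identifier may be copies of 1 molecule. The models were tested on simulated counts. DESeq2 1.42.0 and other settings were run as alternatives.

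All 10 genes are named by rule, and they and the lists were chosen with earlier results of these data known. The planned lists of further Wnt genes, cell type markers and genes of like pattern were not used here, because the files and the reference table do not pair Ensembl identifiers with names. Positions and promoter windows are those of RefSeq (GRCh38.p14), matched by symbol. Same-numbered INPUT and RPF replicates deviated from their group means with correlations of -0.125 to 0.225, so the numbers were not treated as pairs. The replicate pairs of HCT116 (both assays) and of the footprints of COPS7B and 841CON differed by a chi-square of 1.39 to 1.70 per gene, against 4.12 to 66.2 in the other groups. They were kept as 2 libraries and summed to 1 in an alternative.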

Additional observations from a re-analysis of the deposited data

Results flagged for a closer look

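TCF7 was singled out because its translational efficiency differed among the 3 cancer lines in a test of that difference (edgeR adjusted p 4.75e-05, 2 libraries per group and assay). That test called 1 of the 5 genes tested here and 52.8% of 8304 genes in all, so a call by itself was common. Both HCT116 RPF libraries held 0 TCF7 footprints beside 227 and 352 INPUT counts, whereas SW620 held 2 and 11 footprints beside 57 and 51 INPUT counts, and HCT15 67 and 301 beside 637 and 119. TCF7 passed in all 19 alternative analyses, with an adjusted p of 4.08e-13 to 0.00406. In the same HCT116 libraries, LEF1 had 0 INPUT counts and 136 footprints and ASCL2 1 and 236. The weaker correlation of HCT116 INPUT with HCT116 footprints (0.604 to 0.614) than with HCT15 footprints (0.640 to 0.677) goes with these values, although HCT116 footprints were closer to HCT116 INPUT than to the INPUT of HCT15 (0.476 to 0.505) or vector (0.514 to 0.545). Its part in them was not tested. All alternative analyses of TCF7 drew on these same HCT116 libraries.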

How the results depend on the processing

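No call reversed its direction in any alternative. Of the 65 calls on single genes in the 20 comparisons, 63 were also made with DESeq2, 65 with TMM over all 24 libraries, 62 without the filter on low counts, 60 without TMM and 45 with the 4 close replicate pairs summed. On the compared libraries alone 47 of 59 were made, and 220 of 276 when a library was left out. With the replicate number as a block, 65 of 65 were made and all 20 counts stayed within 1.5 times, for example 7 of 9 genes in HCT15 RNA with the replicate block. With close pairs summed, the genes called were 2 in place of 5 for COPS7B against HCT116 RNA, 3 for 5 for HCT116 against HCT15 RNA, 1 for 3 for COPS7B against vector footprints, 2 for 5 for HCT116 against 841CON footprints, and 0 for 1 in translational efficiency of HCT116 and of SW620 against 841CON. The calls over all genes moved likewise, to 533 in place of 2856, 521 for 2714, 335 for 2070, 4394 for 7077, 1905 for 3877 and 351 for 1542. Fitted on the compared libraries alone, which leaves fewer degrees of freedom, they were 8 in place of 5 for COPS7B against HCT116 RNA, 7 for 4 for COPS7B against vector RNA, 2 for 4 for HCT116 and 0 for 7 for HCT15 against 841CON RNA, and 0 for 1 in SW620 translational efficiency. Over all genes these were 7156 in place of 2856, 4185 for 2090, 2794 for 4783, 0 for 4229 and 320 for 1542. Without TMM, translational efficiency gave 0 for 1 in HCT116 and 0 for 1 in SW620, DESeq2 gave 2 for 1 in HCT116, and the analysis without the HCT116 and COPS7B libraries, chosen after seeing the data, gave 0 for 1 in SW620. The cause of these moves was not tested.

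Leaving out each library in turn gave these ranges of genes called. RNA against 841CON: HCT116 3 to 5, SW620 6 to 7, HCT15 6 to 7. RNA between lines: HCT116 against HCT15 3 to 5, HCT116 against SW620 5 to 7, SW620 against HCT15 2 to 2. RNA of COPS7B: 3 to 3 against vector and 3 to 4 against HCT116. Footprints against 841CON: HCT116 2 to 4, SW620 3 to 6, HCT15 5 to 6. Footprints of COPS7B against vector gave 3 to 3 and of vector against HCT15 0 to 1. Translational efficiency gave 0 to 2 for HCT116, 0 to 2 for SW620 and 0 to 1 for HCT15 against 841CON, and 1 to 2 among the cancer lines. Counts that stayed at 0 were those of vector against HCT15 in RNA and efficiency and of COPS7B against vector in efficiency. The SW620 footprints, at 98043 and 84262 counts, are the shallowest libraries.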
